A study of Saccharomyces cerevisiae with 4 samples.

Results

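The proteasome genes of budding yeast were followed in RNA from cells without the DEAD-box RNA helicase gene DBP2 and from wild-type cells. Genes were chosen by name. Every feature whose systematic reading-frame name carries a standard name of RPN, RPT, PRE or PUP plus digits, or SCL1, was taken, which gave 34 of the 7126 features in the table. Of these, 32 encode subunits, RPN14 encodes an assembly chaperone, and RPN4 encodes the transcription factor of the group. All 34 had a mean of at least 1 FPKM, a fragment count scaled by feature length and library size, and entered the test, and none was lost to a filter.

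The 26S proteasome degrades proteins that carry ubiquitin. Its 20S core is a barrel of outer alpha rings, which gate the entrance, and inner beta rings, which hold the proteolytic sites. A 19S regulatory particle caps the barrel, with a base of Rpt ATPases that unfold the substrate and a lid that removes its ubiquitin. In budding yeast the transcription factor Rpn4 binds a short promoter element in front of most of these genes, and Rpn4 is itself degraded by the proteasome, so that the supply of subunits follows demand.

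The mutant, called dbp2null, is strain BTY115, a MATa strain with dbp2::KanMx, ura3Δ0, leu2Δ0, his3Δ0, TRP1, met- and lysΔ, and it was sequenced as 2 libraries. Wild type, also 2 libraries, is MATa with his3Δ1, leu2Δ0, met15Δ0 and ura3Δ0. Both genotypes were grown at 30 °C in YPD, a rich glucose medium, to an OD600 near 0.4, and rRNA-depleted total RNA was sequenced. Each genotype is 1 strain. Because the strains also differ in auxotrophies, an effect of DBP2 and an effect of the background cannot be told apart.

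DBP2 itself stood at 2.90 and 1.03 FPKM in dbp2null against 213 and 199 FPKM in wild type (log2 fold change -6.20, SE 0.35, limma adjusted p = 0.0225). The MATa receptor gene STE2 read 286 and 155 FPKM in dbp2null, against 218 and 222 FPKM in wild type, and the alpha-cell receptor gene STE3 read 5.47 and 15.5 FPKM in dbp2null, against 4.54 and 2.69 FPKM in wild type. Of 3 other MATa genes, BAR1 read 26.2 and 28.0 FPKM in dbp2null against 67.6 and 63.9 FPKM in wild type, and the pheromone genes MFA1 and MFA2 were far lower in dbp2null replicate 2 than in the other libraries. MFA1 read 1295 and 57.7 FPKM in dbp2null against 1084 and 2203 FPKM in wild type, and MFA2 read 14777 and 347 FPKM in dbp2null against 23641 and 30039 FPKM in wild type. All 4 MATalpha genes tested lay above wild type in both mutant libraries, as did 49.8% of all features, with a median log2 fold change of 1.22, and 0 of the 8 mating-type genes were called by limma. The second dbp2null library stood apart from the other 3. Its FPKM over all features summed to 3.37e+06, against 5.01e+07 in dbp2null replicate 1 and 5.29e+07 and 3.22e+07 in wild type. Nuclear protein-coding features summed to 681688 FPKM in that library, against 2.30e+06 in dbp2null replicate 1 and 2.19e+06 and 2.24e+06 in wild type. Read depth is unknown, so no counting interval can be given.

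What most of these genes share in sequence is the Rpn4 box. Upstream windows of 300 bases before the coding start were read from the R64 genome (sacCer3) and searched on both strands for GGTGGCAAA. The box was found in 27 of 34 windows (79.4%), against 72 of 5987 windows of nuclear protein-coding genes (1.20%), with the 27 included. The element is known to lie before most of these genes, so this share is a description and not a test. Each of the 27 held exactly 1 box, which began between 84 and 183 bases before the coding start, with a median of 120.0 bases. It read in the direction of the gene in 19 and against it in 8. The core GGTGGC alone was in 29 of 34 windows (85.3%), against 6.45% of all. Sequences from each part of the particle are shown 5′ to 3′ on the strand where the box reads forward, with the box in capitals, as the element that most of the group shares.
PRE9, alpha ring, chrVII:761223-761252, plus strand: ttaccctgcaGGTGGCAAAaaatttataga
SCL1, alpha ring, chrVII:475336-475365, plus strand: tctatccttacGGTGGCAAAttggtgtgtg
PRE2, beta ring, chrXVI:732184-732213, plus strand: acagcaaaagGGTGGCAAAacgaagaatag
PUP3, beta ring, chrV:349510-349539, minus strand: tggcactgccGGTGGCAAAaaagtgcaaat
RPT3, base ATPase, chrIV:1261495-1261524, plus strand: ctgaaagtaaGGTGGCAAAatagtaaatct
RPT6, base ATPase, chrVII:411351-411380, minus strand: atgcgagcgaGGTGGCAAAagttgtaatat
RPN1, base scaffold, chrVIII:164837-164866, minus strand: tgtgttttacGGTGGCAAAaggcgagcacg
RPN5, lid, chrIV:190776-190805, plus strand: ttgacttttcGGTGGCAAAatgcaaagggg
RPN11, lid, chrVI:153259-153288, plus strand: ggacctccaaGGTGGCAAAttcacaagaaa

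Of the 7 genes without an exact box, 5 are subunit genes and each had 1 site that differs from it by a single base. With 1 mismatch allowed, 32 of 34 windows held a site (94.1%), against 7.72% of all windows. These 5 sites are shown because they fall into 2 forms. Counted from 1 at the 5′ end of the box, PRE5, PUP1 and RPN8 carry G1A and RPN10 and RPN13 carry A7G. RPN14 and RPN4 had no site within 1 mismatch in their windows.
PRE5, alpha ring, chrXIII:901552-901581, plus strand: cctattatagAGTGGCAAAattaaaaattc
PUP1, beta ring, chrXV:631890-631919, minus strand: aacccggccgAGTGGCAAAataccaaaaag
RPN8, lid, chrXV:817084-817113, minus strand: gggatacctcAGTGGCAAAtcgttactcaa
RPN10, base, chrVIII:498968-498997, minus strand: ttgtaaattccGGTGGCGAAaacccgcctg
RPN13, base, chrXII:965655-965684, minus strand: ttattcgcgaGGTGGCGAAagctttgctac

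**Figure D1:**
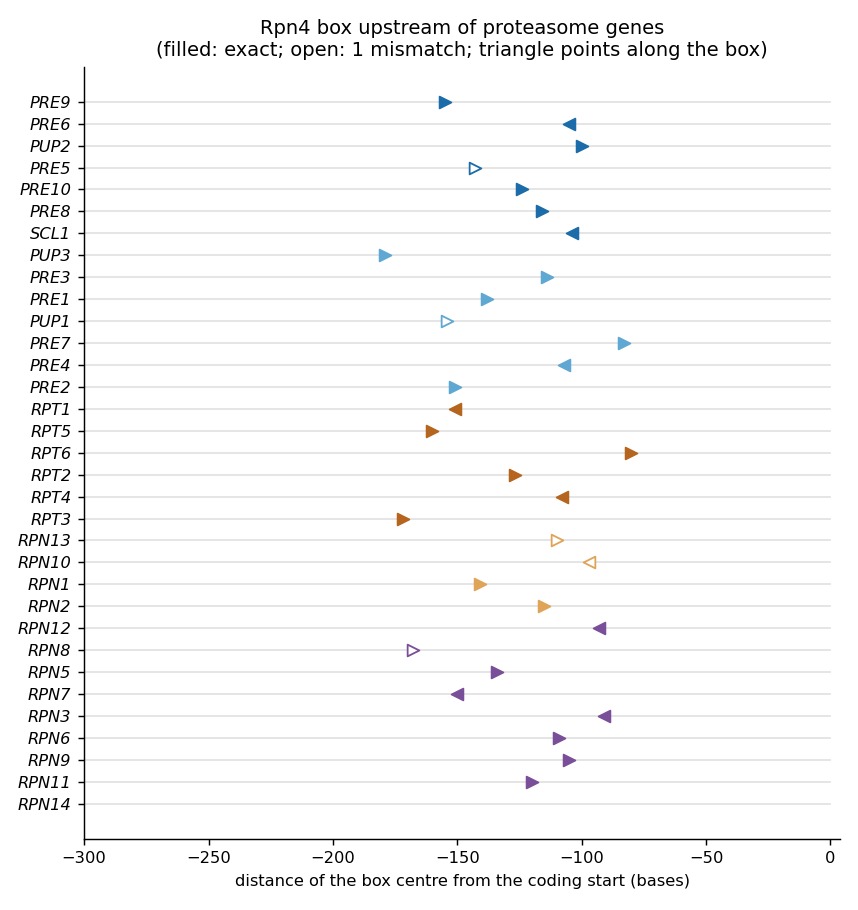
Position of the Rpn4 box before the coding start of each proteasome gene other than RPN4, in bases from the coding start on the horizontal axis, with filled triangles for exact boxes, open triangles for sites with 1 mismatch and triangles pointing along the box. The 27 exact boxes begin 84 to 183 bases before the coding start, and RPN14 has no site.

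A match is a description of letters, and binding was not measured here. The genes are spread over the genome. Of pairs on 1 chromosome, the closest were RPT4 and RPN8 (chromosome XV, 2206 bases apart), PRE4 and RPN12 (chromosome VI, 2638 bases) and PRE2 and RPN7 (chromosome XVI, 9241 bases). None of the 34 overlapped another feature that could be placed on the R64 annotation.

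No proteasome gene passed the test. FPKM was compared as log2(FPKM + 1) with limma, and features with a Benjamini-Hochberg adjusted p below 0.05 are called changed. Of all 6781 features tested, 81 were called (1.19%, with 0.973% higher and 0.221% lower), and among the 34 proteasome genes 0 were called by limma, with adjusted p from 0.0694 to 0.934. At an unadjusted p below 0.05 limma gave 1 of 34, RPN14, higher in dbp2null, where 32.5% of all features were higher and 5.41% lower at that level. The smallest p open to an exact permutation test of 2 libraries against 2 is 0.333. The design text speaks of biological replication but not of separate cultures, and p-values measure only the spread between these libraries.

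Most subunits read slightly lower in dbp2null in the FPKM as deposited, though none passed the test. Among the 33 genes other than RPN4 the log2 fold change was negative for 29 and positive for 4, with a median of -0.36, while the median of all tested features was 0.28 and 37.7% of them were negative. Both dbp2null values lay below both wild-type values for 22 of the 33 genes, above them for 2, and overlapped them for 9. Over all features the same was true of 20.7% (below) and 49.8% (above). This split depends on how the libraries are scaled. It was 2 higher and 31 lower with median centring, but 25 higher and 8 lower with quantile normalization and 33 higher and 0 lower when libraries were rescaled to their protein-coding sum. The median of all features moved too, to -0.06, -0.02 and 1.08, and the proteasome median minus that of all features was -0.64 as first computed and -0.64, 0.22 and -0.62 under these scalings.

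The 2 dbp2null libraries differed in the size of this shift. Against the wild-type mean, the median of the 33 genes was -0.12 for dbp2null replicate 1 and -0.54 for dbp2null replicate 2. Replicate 2 was below replicate 1 for 31 of the 33 genes. When dbp2null replicate 1 was left out, limma called 14 of 34, all lower, but it then called 2512 of 6781 features (21.2% lower and 15.8% higher), with the lone mutant library assumed to vary like the wild-type pair. When dbp2null replicate 2 was left out limma called 0 of 34, with 26 of the 33 genes lower and 7 higher.

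**Figure D2:**
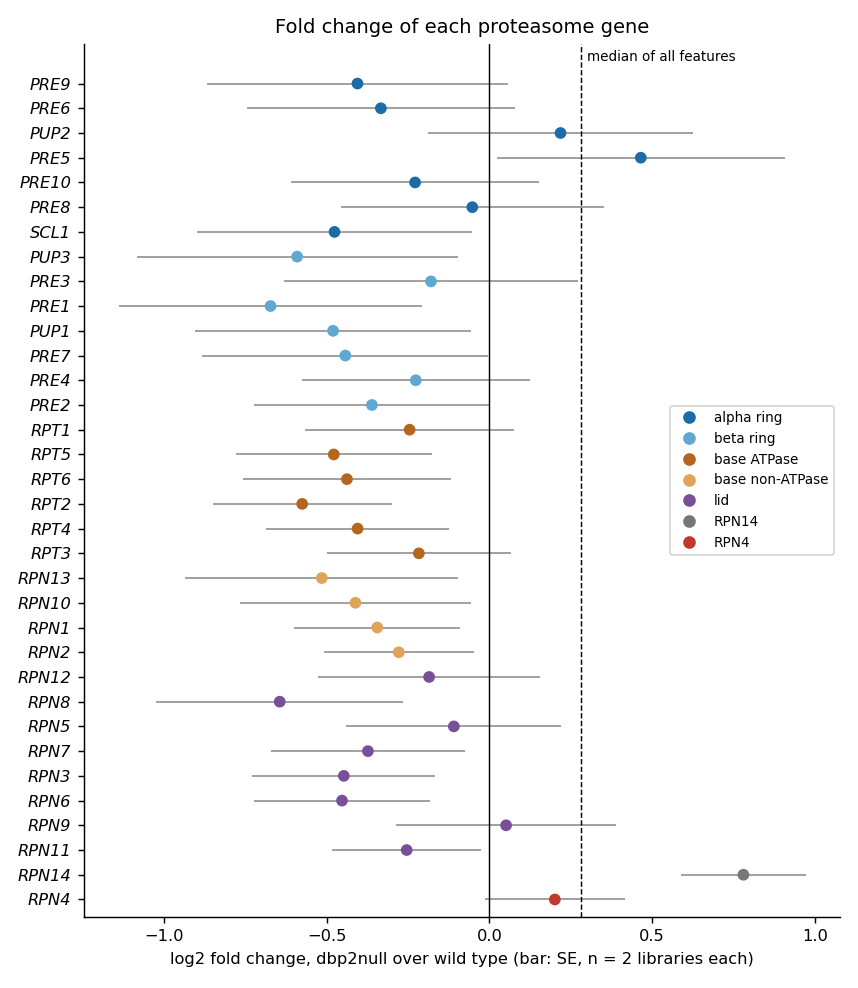
Log2 fold change of each proteasome gene, dbp2null over wild type on log2(FPKM + 1), with bars of 1 SE from limma (n = 2 libraries each), a solid line at 0 and a dashed line at the median of all features, 0.28. Only PUP2, PRE5, RPN9, RPN14 and RPN4 lie above 0 and no gene passed the test, while with protein-coding rescaling all 33 genes other than RPN4 were above 0.

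Difference from wild type followed the wild-type level across all genes. Over 5940 nuclear protein-coding genes, Spearman's rho between wild-type mean FPKM and the log2 difference was -0.70 in dbp2null replicate 1 and -0.89 in replicate 2 (a description across genes, in which the wild-type libraries enter both axes). Genes under 10 FPKM in wild type had a median log2 fold change of 1.56, those from 10 to 30 FPKM 0.63, those from 30 to 100 FPKM -0.001 and those from 100 to 300 FPKM -0.51. Of the proteasome genes, 26 lay between 100 and 300 FPKM in wild type. Their median was -0.39 beside the -0.51 of all 738 genes of that level, -0.12 beside -0.14 in replicate 1 alone and -0.59 beside -0.87 in replicate 2 alone. The 6 between 30 and 100 FPKM had a median of -0.27. The part that this level trend has in the proteasome values was not tested.

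**Figure D3:**
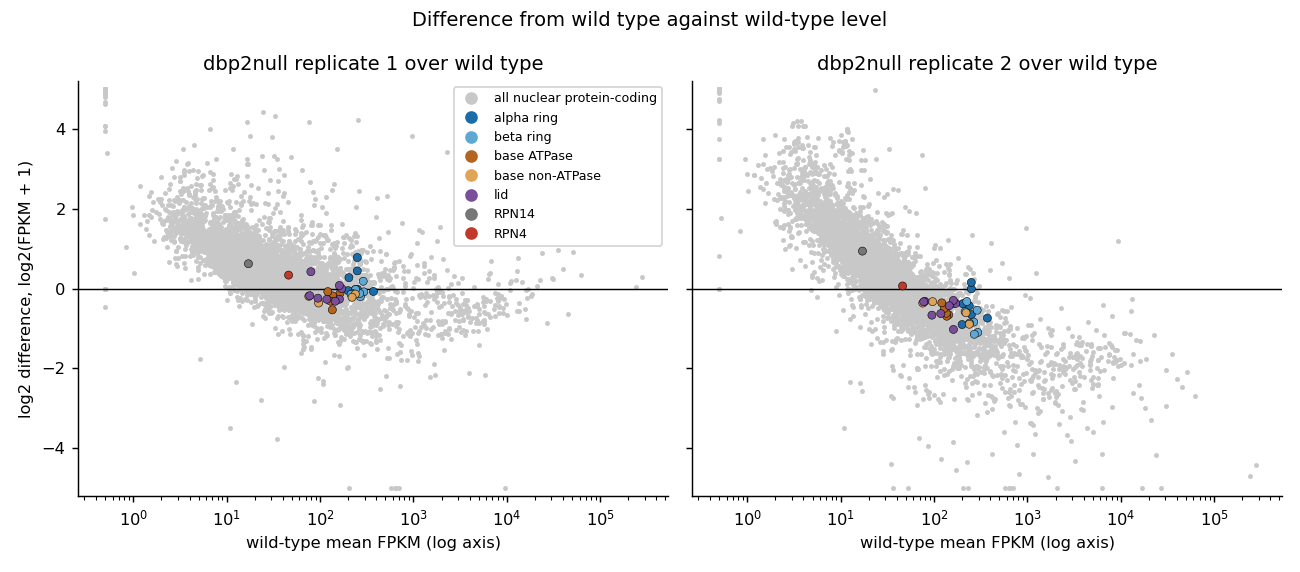
Log2 difference from the wild-type mean on log2(FPKM + 1) against the wild-type mean FPKM (log axis), for dbp2null replicate 1 on the left and replicate 2 on the right, with grey points for all nuclear protein-coding genes and coloured points for proteasome genes. Differences beyond 5 and wild-type means under 0.5 are drawn at the edge. Proteasome genes lie inside the cloud in both panels, at a median of -0.12 on the left and -0.54 on the right (without RPN4).

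Coding length also moved with the gap between the dbp2null libraries. Across the 34 genes, rho between coding length and the log2 ratio of replicate 2 to replicate 1 was 0.76, and across the 5940 protein-coding genes it was 0.60. Core subunit genes are short, 597 to 867 coding bases, and the 19S genes have a median of 1297.5 coding bases. The median gap of replicate 2 from replicate 1 was -0.66 for the 14 core genes and -0.36 for the 18 genes of the 19S particle, against -0.08 for all features. Its part in the results was not tested. Ranks avoid the scale of a library. The median subunit stood at percentile 88.0 and 90.6 of nuclear protein-coding genes in the dbp2null libraries and at 88.2 and 87.7 in wild type. By the rank of this median, dbp2null replicate 1 lay between the wild-type libraries and dbp2null replicate 2 above both. The median 19S gene stood at percentile 82.7 and 85.5 in dbp2null and at 84.8 and 83.9 in wild type, so that for it dbp2null replicate 1 lay below both wild-type libraries.

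Directions by part of the particle are given for FPKM as deposited, and with protein-coding rescaling each of the 33 genes was positive. The alpha ring held the only core genes that read higher in dbp2null. Its 7 genes had a median of 248 and 176 FPKM in dbp2null, against 256 and 242 FPKM in wild type, with 2 positive and 5 negative fold changes. PRE5, for alpha subunit 6, read 430.0 and 279 FPKM in dbp2null against 252 and 249 FPKM in wild type. Both mutant values were higher, but replicate 1 far more so, and the log2 fold change of 0.47 (SE 0.44, limma adjusted p = 0.465) did not pass the test. Taken singly, the libraries gave 0.78 (replicate 1) and 0.15 (replicate 2), and the fold change was 1.73 with quantile normalization.

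PUP2, for alpha subunit 5, read 341 and 249 FPKM in dbp2null against 256 and 245 FPKM in wild type, so that its second mutant value lay between those of wild type. PRE8, for alpha subunit 2, read 246 and 156 FPKM in dbp2null, against 190.0 and 218 FPKM in wild type. The mutant pair lies on both sides of the wild-type pair. PRE9, for alpha subunit 3 and the only core subunit that yeast can live without, read 354 and 223 FPKM in dbp2null, against 388 and 357 FPKM in wild type, the highest wild-type level of the 34 genes. SCL1, for alpha subunit 1, read 193 and 106 FPKM in dbp2null, against 199 and 200 FPKM in wild type. Only its second mutant library is far from wild type. PRE6 and PRE10, for alpha subunits 4 and 7, had log2 fold changes of -0.33 and -0.23.

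All 7 beta ring genes had negative fold changes, from -0.67 to -0.18. PRE1, for beta subunit 4, had the most negative value of the 34 genes, with 234 and 121 FPKM in dbp2null against 257 and 283 FPKM in wild type (log2 fold change -0.67, SE 0.47, limma adjusted p = 0.342). Without dbp2null replicate 1 it was -1.14 with a limma call (adjusted p = 0.0233), and without replicate 2 it was -0.20 without one. PUP3, for beta subunit 3, read 277 and 137 FPKM in dbp2null, against 284 and 304 FPKM in wild type. As with PRE1, the first mutant library is near wild type and the second is below it.

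Of the proteolytic beta subunits, 2 lay below wild type in both mutant libraries, as did 20.7% of all features. PRE2, for the subunit with chymotrypsin-like activity, read 194 and 143 FPKM in dbp2null, against 206 and 224 FPKM in wild type. PUP1, for the trypsin-like subunit, read 244 and 148 FPKM in dbp2null, against 264 and 268 FPKM in wild type. PRE3, for the caspase-like subunit, read 329 and 198 FPKM in dbp2null, against 276 and 304 FPKM in wild type, and it is the 1 gene of the 34 with 2 coding exons. The PRE3 groups overlap, while those of PRE2 and PUP1 do not. The noncatalytic PRE4 and PRE7 had log2 fold changes of -0.23 and -0.44.

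**Figure D4:**
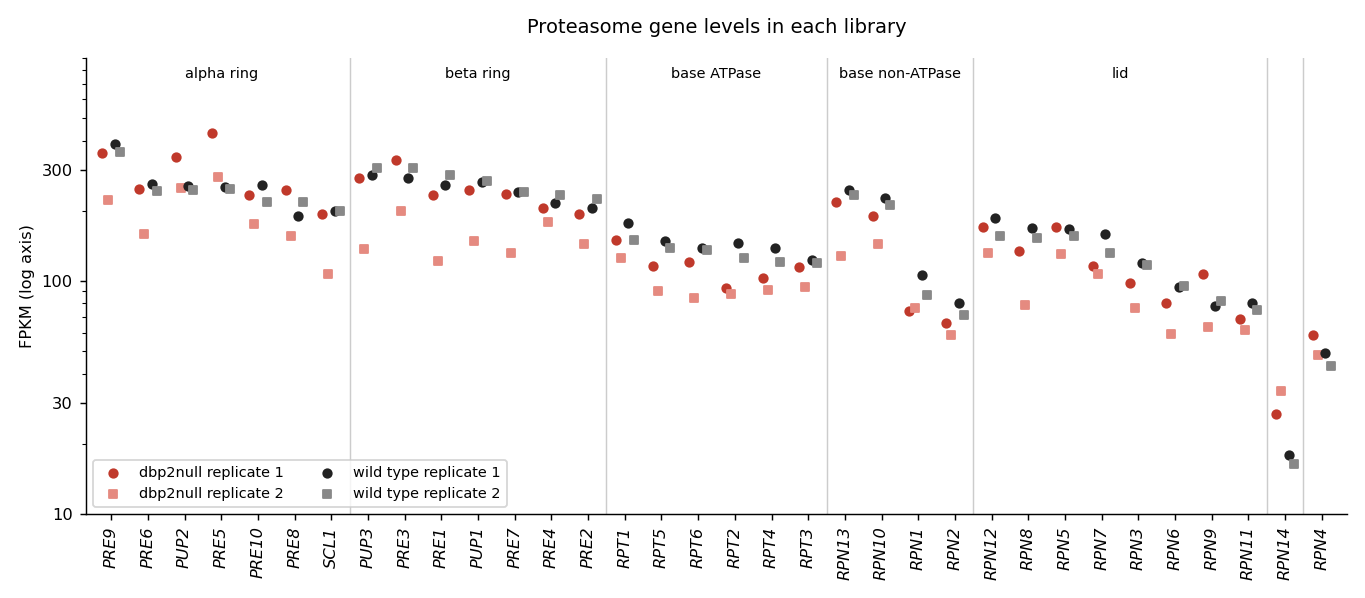
FPKM on a log axis of each proteasome gene in each library, grouped by part of the particle and ordered within a part by wild-type level, with dbp2null libraries in red left of wild-type libraries in black and grey, circles for replicate 1 and squares for replicate 2. The median core gene has 256 and 244 FPKM in wild type and the median 19S gene 142 and 128 FPKM, and dbp2null replicate 2 is the lowest library for most genes.

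All 6 Rpt ATPase genes, whose products form the unfolding ring of the base, read lower in dbp2null. Both mutant values lay below both wild-type values for 5 of the 6, and for 20.7% of all features. RPT2, for the ATPase that opens the core gate, read 93.0 and 87.5 FPKM in dbp2null against 145 and 125 FPKM in wild type. Here both mutant libraries are low and close together (log2 fold change -0.58, SE 0.28, limma adjusted p = 0.199), with -0.53 and -0.62 in replicates 1 and 2 alone. RPT4 read 103 and 91.1 FPKM in dbp2null, against 138 and 120.3 FPKM in wild type, and RPT5 read 116 and 90.5 FPKM in dbp2null, against 148 and 139 FPKM in wild type. RPT1 was the ATPase gene whose groups overlap, with 149 and 126 FPKM in dbp2null, against 177 and 149 FPKM in wild type. RPT3 and RPT6 had log2 fold changes of -0.22 and -0.44.

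The other 4 base genes all lay below wild type in both mutant libraries, as did 20.7% of all features. RPN1, for the larger scaffold that receives shuttle factors, read 74.5 and 76.3 FPKM in dbp2null against 106 and 87.0 FPKM in wild type (log2 fold change -0.34, SE 0.26, limma adjusted p = 0.366). RPN2, for the other scaffold, read 65.9 and 58.5 FPKM in dbp2null, against 80.3 and 71.1 FPKM in wild type. These are long genes, of 2982 and 2838 coding bases, and their mutant libraries are close together. The ubiquitin receptor genes are short. RPN10 read 189 and 144 FPKM in dbp2null, against 228 and 212 FPKM in wild type, and RPN13 read 217 and 128 FPKM in dbp2null, against 244 and 233 FPKM in wild type.

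Of the 8 lid genes, 7 had negative fold changes and 5 lay below wild type in both mutant libraries. Over all features 37.7% were negative and 20.7% lay below. RPN8, which pairs with the deubiquitinase, read 134 and 78.8 FPKM in dbp2null against 169 and 153 FPKM in wild type (log2 fold change -0.64, SE 0.38, limma adjusted p = 0.274). RPN11, for the deubiquitinase itself, read 68.4 and 61.3 FPKM in dbp2null, against 80.3 and 74.7 FPKM in wild type, a log2 fold change of -0.25. RPN9 was the lid gene with a positive value (0.05), and its libraries split, with 107 and 63.7 FPKM in dbp2null on both sides of 77.9 and 81.6 FPKM in wild type. RPN3, RPN6 and RPN7 lay below wild type at -0.45, -0.45 and -0.37, and RPN5 and RPN12, at -0.11 and -0.19, overlapped it.

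RPN14, for a chaperone of base assembly rather than a subunit, had the largest positive value. It read 26.9 and 33.7 FPKM in dbp2null against 17.9 and 16.4 FPKM in wild type. Both mutant libraries are above both wild-type libraries (log2 fold change 0.78, SE 0.19, limma adjusted p = 0.0694), with 0.62 and 0.94 in replicates 1 and 2 alone. It kept its sign in every alternative run, from 0.18 with quantile normalization to 1.57 with protein-coding rescaling. At its wild-type level, 10 to 30 FPKM, the median of 2152 protein-coding genes was 0.63.

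RPN4, the regulator, was near wild type in the FPKM as deposited. It read 58.3 and 48.1 FPKM in dbp2null, against 48.9 and 43.1 FPKM in wild type. The groups overlap, and the log2 fold change of 0.20 (SE 0.22, limma adjusted p = 0.515) did not pass the test and turned to -0.13 with median centring. With protein-coding rescaling RPN4 stood at 1.01, beside a median of 1.08 over all features. Its upstream 600 bases hold motifs of its own known regulators, searched on both strands and shown with the motif in capitals on the strand where it was found. The motif of Pdr1 and Pdr3, drug-resistance factors, was searched as TCCGNGGA and occurs in 3.53% of windows of that length. The Yap1 motif TTACTAA, of the oxidative stress factor, occurs in 13.7%, and TTCNNGAA, a pair of heat shock factor units, in 25.1%.
RPN4, Pdr motif, 442 bases before the coding start, chrIV:417132-417160, minus strand: aataacaagtTCCGTGGAactcaaagaaa
RPN4, Pdr motif, 399 bases before the coding start, chrIV:417089-417117, plus strand: tcacgtgattaTCCGTGGAaaggttcgta
RPN4, Yap1 motif, 374 bases before the coding start, chrIV:417065-417092, minus strand: gtgatcgctaTTACTAAtagccgtttac
RPN4, heat shock units, 348 bases before the coding start, chrIV:417038-417066, minus strand: acagtgatggTTCTAGAAagttccgtttc

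Another match to the heat shock motif begins 21 bases before the coding start. These are matches of letters only. Genes of those regulators did not pass the test. PDR3 read 28.4 and 26.9 FPKM in dbp2null against 14.3 and 13.2 FPKM in wild type (log2 fold change 0.96, SE 0.17, limma adjusted p = 0.0559). Both mutant values lay above wild type, as did those of 49.8% of all features. At the wild-type level of PDR3, 10 to 30 FPKM, the median of protein-coding genes was 0.63. PDR1 had 0.41, YAP1 0.20 and HSF1 0.28. Of the enzymes that mark Rpn4 for degradation, RAD6 read 115 and 70.1 FPKM in dbp2null, against 161 and 148 FPKM in wild type, with the ligase gene UBR2 at 0.79 and its partner MUB1 at -0.09. Of these 8 genes (with UBR1, at 0.12), 0 were called by limma, and their median was 0.24 beside 0.28 over all features. By limma 1 of the 8 was higher at an unadjusted p below 0.05, as were 32.5% of all features.

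Levels were closest within the beta ring and the Rpt ATPases and less close over the whole particle. FPKM is scaled by feature length, yet coding length still moved with the gap between the dbp2null libraries (rho 0.76 across the 34 genes). Ratios between genes of unlike length may therefore hold an effect of length, which was not tested. The ratio of the highest to the lowest beta ring gene was 1.69 and 1.63 in dbp2null and 1.38 and 1.35 in wild type. For the Rpt ATPases these ratios were 1.61 and 1.49 in dbp2null and 1.44 and 1.26 in wild type, and for the alpha ring 2.23 and 2.62 in dbp2null and 2.04 and 1.79 in wild type. For the non-ATPase base genes they were 3.29 and 2.46 in dbp2null and 3.04 and 3.28 in wild type, and for the lid 2.48 and 2.21 in dbp2null and 2.38 and 2.08 in wild type. Over all 32 subunits they were 6.52 and 4.76 in dbp2null and 4.99 and 5.02 in wild type. RPN2 was the lowest subunit gene in both dbp2null libraries and in wild-type replicate 2, and RPN9 in wild-type replicate 1. For the alpha ring, the beta ring and the Rpt ATPases both mutant ratios were above both wild-type ratios, while over all 32 subunits the groups overlap. Coding length runs from 597 to 864 bases in the beta ring, 1218 to 1404 in the Rpt ATPases and 705 to 867 in the alpha ring. It runs from 825 to 1572 bases in the lid and 471 to 2982 in the non-ATPase base genes. No test was made of these ratios.

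Core genes stood higher than 19S genes in FPKM, and they are also shorter, with a median of 762 coding bases against 1297.5. The part of length in this was not tested. The median core gene had 245 and 158 FPKM in dbp2null, against 256 and 244 FPKM in wild type, and the median 19S gene 115 and 89.0 FPKM in dbp2null, against 142 and 128 FPKM in wild type. Their ratio was 2.13 and 1.77 in dbp2null and 1.81 and 1.90 in wild type, and the groups overlap. SEM1, a small lid subunit outside the naming rule, read 1322 and 498 FPKM in dbp2null, against 1248 and 1005 FPKM in wild type, far above the other lid genes. Its coding length is 270 bases, the shortest in its list.

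The median of the assembly chaperone genes lay on the other side of 0 from that of the subunits in the FPKM as deposited. Of the 9 tested, 6 had positive and 3 negative fold changes, with a median of 0.41 beside 0.28 over all features, 0 called by limma and 2 at an unadjusted p below 0.05, both higher, where 32.5% of all features were higher at that level. TMA17, for a chaperone of Rpt pairs that yeast makes under stress, read 190.4 and 125 FPKM in dbp2null against 81.7 and 60.2 FPKM in wild type (log2 fold change 1.12, SE 0.36, limma adjusted p = 0.0956). PBA1, for a chaperone of the alpha ring, read 51.8 and 46.2 FPKM in dbp2null, against 31.1 and 28.9 FPKM in wild type. Both mutant values were higher in each. Over the list this was true of 5 of 9 genes, and of 49.8% of all features. The list had a median of 59.1 and 60.2 FPKM in wild type, and the 32 subunits 188 and 178 FPKM. Protein-coding genes from 30 to 100 FPKM in wild type had a median log2 fold change of -0.001, and those from 100 to 300 FPKM -0.51. UMP1, for the chaperone that guides maturation of the beta ring, read 259 and 167 FPKM in dbp2null, against 163 and 132 FPKM in wild type, also without overlap. NAS6, for a base chaperone that binds Rpt3, went the other way, with 84.9 and 42.3 FPKM in dbp2null against 101 and 108 FPKM in wild type.

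Of 5 genes for ubiquitin supply and activation, 1 was above 0 and 4 were below 0 in log2 fold change, and limma called 0. At an unadjusted p below 0.05, 1 was lower by limma (UBA1), where 5.41% of all features were lower. UBI4, the stress-induced polyubiquitin gene, read 137 and 97.7 FPKM in dbp2null against 76.1 and 67.4 FPKM in wild type (log2 fold change 0.69, SE 0.30, limma adjusted p = 0.167). RPS31, which encodes ubiquitin fused to a ribosomal protein, read 9368 and 4511 FPKM in dbp2null against 16729 and 15273 FPKM in wild type. Its log2 fold change was -1.30, and the other fusion genes, RPL40A and RPL40B, had -0.89 and -1.05. All 3 fusion genes stood above 1000 FPKM in wild type, where the median of 227 protein-coding genes was -1.26. UBA1, for the ubiquitin-activating enzyme, read 70.6 and 64.9 FPKM in dbp2null against 127 and 123 FPKM in wild type (log2 fold change -0.87, SE 0.25, limma adjusted p = 0.0829). Both mutant values of UBI4 lay above wild type, as did those of 49.8% of all features. Those of the other 4 genes lay below wild type, as did those of 20.7% of all features. In the Cdc48 and shuttle list, 6 of 11 were positive and 5 negative (median 0.42), and 0 were called. Values ran from SHP1 (77.8 and 68.5 FPKM in dbp2null, 135 and 125 FPKM in wild type), for a Cdc48 cofactor, to UBX2 (48.2 and 43.8 FPKM in dbp2null, 25.4 and 21.7 FPKM in wild type), which anchors Cdc48 at the endoplasmic reticulum. At an unadjusted p below 0.05 limma gave 4 of 11 higher and 2 lower, where 32.5% of all features were higher and 5.41% lower.

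**Figure D5:**
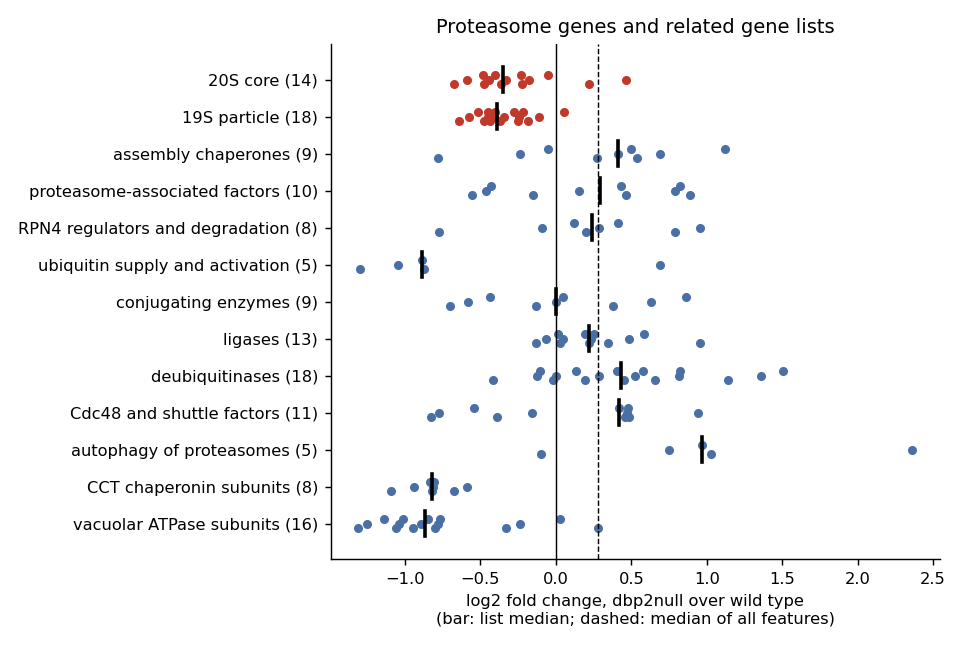
Log2 fold change, dbp2null over wild type, of the proteasome core and 19S genes (red) and of genes in related lists (blue), with black bars at list medians, the number of genes in brackets and a dashed line at the median of all features, 0.28. The 2 proteasome groups have medians of -0.35 and -0.39, and no gene shown was called. Values are for FPKM as deposited, and the median of the 33 genes other than RPN4 was 0.46 with protein-coding rescaling.

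2 other large complexes had more negative medians. The 8 subunit genes of the CCT chaperonin had a median log2 fold change of -0.82, beside -0.37 for the 32 proteasome subunits. All 8 lay below wild type in both mutant libraries, as did 20.7% of all features. The 16 genes of the vacuolar ATPase had a median of -0.87, and 10 of them lay below wild type in both mutant libraries. The CCT genes stood at a median of 102 and 73.4 FPKM in dbp2null, against 152 and 153 FPKM in wild type. Protein-coding genes from 100 to 300 FPKM in wild type had a median log2 fold change of -0.51. The vacuolar ATPase genes stood at 273 and 163 FPKM in dbp2null, against 375 and 416 FPKM in wild type. For protein-coding genes from 300 to 1000 FPKM in wild type the median log2 fold change was -0.94. No test of the difference between these complexes was made.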

How the data were processed

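RNA was measured in 2 dbp2null and 2 wild-type libraries. The deposited values are FPKM, 1 column per library, and hold no counts. Per the submitters' processing notes the authors used CASAVA, TopHat, Cufflinks and edgeR with the build sacCer3, and no role, order or version of these is given in the sources used here, nor whether counting used strand. After 3 blank rows were left out, 6048 of 7126 features matched RefSeq R64 by systematic name, all 34 proteasome genes among them. Values were analysed as log2(FPKM + 1) for features averaging 1 FPKM or more. The model was limma (version 3.58.1, R version 4.3.3) with trended variance, two-sided tests and Benjamini-Hochberg adjustment over all features tested, after a test on simulated data. The added 1 shrinks the fold changes of low features. Precision rests on 2 libraries per genotype, and depth is unknown. Coding length and sequence come from the R64 annotation and genome of RefSeq, in which gene starts are coding starts. The members and lists were chosen with earlier results of these data known. All proteasome genes are named. Of related lists the text names called members and the highest and lowest that average 10 FPKM or more, and members of the lists of Rpn4 regulators and assembly chaperones freely. UBA1 and SEM1 were added after their values were seen. RPL40A and RPL40B are also named outside the rule for related lists. Lists for conjugating enzymes, ligases, deubiquitinases and autophagy genes are described in the closing section. Alternatives were other pseudocounts, filters and scalings, no trend, a replicate block and each library left out.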

Additional observations from a re-analysis of the deposited data

How the results depend on the processing

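The count of proteasome genes called was 0 under every pseudocount, filter, scaling and trend tried, with the replicate block, and without dbp2null replicate 2 or either wild-type library. It was 1 with an adjusted p below 0.1, 1 at an unadjusted p below 0.05 and 1 with the block crossed (all RPN14), and over the libraries left out in turn it ranged from 0 to 14. Calls over all features, 81 as first computed, were 8 with a pseudocount of 0.1, 425 with 5, 13 with a mean of at least 10 FPKM, 13 with median centring, 5 with quantile normalization, 41 without the trend, 2102 at an adjusted p below 0.1, 2568 at an unadjusted p below 0.05 and from 0 to 2512 with a library left out. The cause was not tested. The split of higher and lower calls, 66 and 15, became 3 and 10 with median centring, 1 and 4 with quantile normalization and 48 and 52 with protein-coding rescaling. The replicate numbers are not known to pair the libraries. With them as a block 16 features were called, and with the numbers crossed, chosen after seeing the data since the deviations of same-numbered libraries correlated at -0.11, 2667. The proteasome median of -0.36 was -0.70 with median centring, 0.20 with quantile normalization and 0.46 with protein-coding rescaling, and with a library left out it ranged from -0.54 to -0.12.

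Log2 fold changes that changed sign, none of them called, were as follows. With median centring RPN4 stood at -0.13, RPN9 at -0.28 and PUP2 at -0.12. With a library left out, RPN9 ranged from -0.32 to 0.42, PUP2 from -0.0067 to 0.44, RPN5 from -0.30 to 0.078, PRE3 from -0.54 to 0.18 and PRE8 from -0.38 to 0.27. Quantile normalization gave positive values for RPT5 0.012, RPT6 0.022, SCL1 0.055, RPT4 0.073, PUP3 0.087, RPN13 0.12, RPN7 0.15, PRE7 0.20, RPT3 0.26, PUP1 0.28, RPN10 0.30, PRE2 0.35, RPT1 0.36, RPN12 0.43, PRE6 0.49, RPN5 0.49, PRE10 0.70, PRE8 0.72, PRE4 0.74, PRE9 0.85 and PRE3 0.90. Protein-coding rescaling did so for PRE1 0.14, RPN8 0.17, PUP3 0.23, RPT2 0.24, RPN13 0.30, RPT5 0.34, PUP1 0.34, SCL1 0.34, RPN6 0.36, RPN3 0.37, PRE7 0.38, RPT6 0.38, RPN10 0.41, RPT4 0.41, PRE9 0.41, RPN7 0.44, PRE2 0.46, RPN1 0.47, PRE6 0.48, RPN2 0.53, RPN11 0.56, RPT1 0.57, PRE10 0.59, PRE4 0.59, RPT3 0.60, RPN12 0.63, PRE3 0.64, RPN5 0.71 and PRE8 0.77. The exact Rpn4 box does not depend on these choices. Without counts, no depth limit can be stated.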

Other observations

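The exact Rpn4 box is also upstream of 45 nuclear protein-coding genes that are not proteasome genes by name, and 8 of these share the very box of a proteasome gene that lies beside them, such as YPI1 beside RPN11, MPO1 beside SCL1 and NOP14 beside RPN5. Of the 44 with a test, 25 had positive and 19 negative log2 fold changes, with a median of 0.13, beside -0.34 for the 27 proteasome genes with the box, -0.41 for the 7 proteasome genes without it and 0.34 for all 5939 genes with a window and a test. The genes named in this paragraph were chosen after their values were seen. Log2 fold changes ran from -1.42 to 2.18. Over all features 1.19% were called by limma, and protein-coding genes from 10 to 30 FPKM in wild type had a median of 0.63. DOC1, for a subunit of the anaphase-promoting complex, was the 1 gene of the 44 called, with 35.7 and 37.5 FPKM in dbp2null against 12.7 and 12.4 FPKM in wild type (log2 fold change 1.47, SE 0.16, limma adjusted p = 0.0465). The call ended in 10 of 14 alternatives, with limma adjusted p from 5.03e-05 to 0.553 over all 14. Of those with negative values, SGT2, which was not the lowest, for a cochaperone of tail-anchored membrane proteins, read 218 and 145 FPKM in dbp2null against 403 and 364 FPKM in wild type (limma adjusted p = 0.135).

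Genes of the wider ubiquitin system had no call. The list of proteasome-associated factors holds 10 genes, among them SEM1, the lid subunit outside the naming rule, at -0.46. Of the 10 genes 6 were positive and 4 negative (median 0.29), from CIC1 at -0.55 to HUL5, for a ligase on the proteasome, at 0.89. By limma 3 had an unadjusted p below 0.05, all higher, where 32.5% of all features were higher at that level. Of 18 deubiquitinase genes 13 were positive and 5 negative (median 0.43), from UBP13 (31.6 and 36.1 FPKM in dbp2null, 49.5 and 41.8 FPKM in wild type) to UBP9 (14.9 and 21.8 FPKM in dbp2null, 6.55 and 4.95 FPKM in wild type). Of 13 ligase genes 11 were positive and 2 negative (median 0.22), from RSP5 at -0.13 to TUL1 at 0.95. Of 9 conjugating enzyme genes 4 were positive and 5 negative, from UBC7 at -0.71 to UBC11 at 0.86. Among 5 autophagy genes 4 were positive and 1 negative (median 0.97, highest 2.36). Of those that average 10 FPKM or more, CUE5, for a ubiquitin-binding receptor of autophagy in yeast, was lowest at -0.10 and ATG7 highest at 1.03. At an unadjusted p below 0.05 limma gave 5 deubiquitinase, 2 ligase, 1 conjugating enzyme and 3 autophagy genes, all higher, of 18, 13, 9 and 5, beside the same 32.5% of all features. Most of these have under 30 FPKM in wild type, where the median of protein-coding genes was 1.56 (under 10 FPKM) or 0.63 (10 to 30 FPKM).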
